A study of Mus musculus with 6 samples.

Results

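Malat1, Neat1, Gas5, Snhg1, Snhg5, Snhg12, Mir155hg and Mir17hg are 8 long noncoding RNA genes that either stay in the nucleus or carry smaller RNAs inside their transcripts. They were taken by symbol from a gene table of 55414 entries, and 70 of the 142435 transcript entries belong to them. All 8 were found, and all 8 passed the filter on low counts that left 23003 genes for testing. RNA-seq was done on CD8+ T cells of OT-I mice, whose transgenic T cell receptor recognises a peptide of ovalbumin. The N4 libraries came from cells 4 days after stimulation with N4, the strong ovalbumin peptide, and the T4 libraries from cells 4 days after T4, an altered peptide of lower potency. Both stimulated groups also received anti-OX40 and anti-41BB costimulation, 2 antibodies against costimulatory receptors. The naive libraries are labelled only as naive, and every group has 2 libraries. The sample labels give spleen and lymph nodes as the tissue and the design text gives spleens. The labels do not say that the 2 libraries of a group came from separate mice, so a p-value here reflects how far these libraries spread, and that spread may be technical alone.

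Malat1 is an abundant single-exon RNA of nuclear speckles, where splicing factors gather. Neat1 is the scaffold of paraspeckles, nuclear bodies that hold RNA-binding proteins such as SFPQ and NONO. Gas5, Snhg1, Snhg5 and Snhg12 are host genes of small nucleolar RNAs (snoRNAs): the snoRNAs are cut out of the introns and guide chemical modification of ribosomal RNA, while the spliced exons leave as a short noncoding RNA. Mir155hg and Mir17hg are the primary transcripts of miR-155 and of the miR-17-92 cluster, and both sets of microRNAs are known for their part in the growth and effector responses of activated T cells.

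The microRNA hosts are defined by the mature RNAs cut from them, which are shown here. These libraries gave the level of the host RNA only, which does not measure the mature RNAs. Sequences are from RefSeq on GRCm38.p6, 5′ to 3′, with the seed (bases 2 to 8, which pair with target messages) in capitals; all 7 microRNA genes inside the hosts were matched, and only the arms usually taken as the main product are printed.
miR-155-5p: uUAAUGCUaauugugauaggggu
miR-17-5p: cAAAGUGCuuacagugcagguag
miR-20a-5p: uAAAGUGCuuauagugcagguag
miR-18a-5p: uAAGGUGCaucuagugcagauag
miR-19a-3p: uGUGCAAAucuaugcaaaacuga
miR-19b-3p: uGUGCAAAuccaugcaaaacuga
miR-92a-3p: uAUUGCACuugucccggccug
miR-17-5p and miR-20a-5p share the seed AAAGUGC, and miR-19a-3p and miR-19b-3p share GUGCAAA. The 6 hairpins of Mir17hg all lie in exon 2 of Mir17hg-201 (chr14:115043671-115044506 in GENCODE on GRCm38), and the miR-155 hairpin lies in exon 2 of Mir155hg (chr16:84714140-84714204), so these microRNAs are exonic and no intron has to be spliced out to free them.

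The snoRNA hosts carry a different cargo. The annotation places 10 snoRNA entries in Gas5, 8 in Snhg1, 2 in Snhg5 and 5 in Snhg12, and 2 entries each in Gas5 and Snhg12 are overlapping models of a single snoRNA. All entries of Gas5 and Snhg5 lie in introns of every spliced transcript, whereas all of Snhg12 and 2 of Snhg1 overlap an exon of at least 1 spliced form. A snoRNA of Gas5, both of Snhg5 and a further one of Snhg12 are printed to show the 2 snoRNA classes, from the GENCODE transcripts on GRCm38. Capitals mark box C (TGATGA) and box D (CTGA) in the C/D class, and the H box (ANANNA) and the ACA end in the H/ACA class.
Snord47 in Gas5, chr1:161038082-161038158, plus strand: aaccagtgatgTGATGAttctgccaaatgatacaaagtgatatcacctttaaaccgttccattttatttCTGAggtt
Snord50a in Snhg5, chr9:88521529-88521600, minus strand: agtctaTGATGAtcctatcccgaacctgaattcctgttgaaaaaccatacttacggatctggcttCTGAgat
Snord50b in Snhg5, chr9:88521797-88521868, minus strand: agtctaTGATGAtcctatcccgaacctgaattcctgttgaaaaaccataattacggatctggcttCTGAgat
Snora61 in Snhg12, chr4:132310240-132310369, plus strand: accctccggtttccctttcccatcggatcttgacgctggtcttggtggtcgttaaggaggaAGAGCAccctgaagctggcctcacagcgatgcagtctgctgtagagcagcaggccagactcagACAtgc
Snord50a and Snord50b are both 72 bases long and differ by 1 substitution, C50A, counted from 1 at the 5′ end with the base of Snord50a first. Both box C and box D were found in 8 of 10 entries of Gas5, 6 of 8 of Snhg1 and 2 of 2 of Snhg5, whereas 3 of the 5 entries of Snhg12 had boxes H and ACA and 1 had boxes C and D. The other entries lacked a full pair of boxes in these exact letters at the positions searched. A single box, or the same letters elsewhere, can still be present in them. The snoRNAs and microRNAs themselves were close to unmeasured in these libraries. Of 126 values for 21 snoRNA genes, 122 were 0 or 1 estimated count and the highest was 35, and all 42 values for the 7 microRNA genes were 0 or 1. Every level given for a host is therefore that of the long RNA only.

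Genes for parts of the translation machinery, snoRNA hosts among them, often begin in a run of pyrimidines, the 5′ terminal oligopyrimidine tract. The 50 bases around the RefSeq start of the 4 snoRNA hosts are printed with the longest run of C and T that touches the stretch from 10 bases before to 15 bases after the start in capitals; the start itself is base 21 of each.
Gas5, chr1:161035146-161035195, plus strand: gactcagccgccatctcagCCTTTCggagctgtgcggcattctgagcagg
Snhg1, chr19:8723467-8723516, plus strand: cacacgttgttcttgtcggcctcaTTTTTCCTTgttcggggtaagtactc
Snhg5, chr9:88522868-88522917, minus strand: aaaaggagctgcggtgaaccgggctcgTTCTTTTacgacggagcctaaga
Snhg12, chr4:132308658-132308707, plus strand: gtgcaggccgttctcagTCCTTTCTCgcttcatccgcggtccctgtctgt
The run was 6 bases long at the printed start of Gas5 (3 at its other RefSeq start, not printed), 9 in Snhg1, 7 in Snhg5 and 9 in Snhg12. With the start as the first base, it began at base 5 in Snhg1 and base 8 in Snhg5, after the start. In Gas5 (from base -1) and Snhg12 (from base -3) it spanned the start. Among 32851 RefSeq promoters, 33.1% had a run at least as long as that of Gas5, 22.3% as that of Snhg5 and 10.7% as those of Snhg1 and Snhg12. These runs are a description of the start windows, and their role was not tested.

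Library totals ran from 269033066 to 335968843 estimated counts, and TMM factors, which scale for differences in composition, from 0.641 in N4 replicate 2 to 1.36 in T4 replicate 1. The N4 libraries had counts in 21317 to 21579 genes, the T4 libraries in 27098 to 27147. Under scaling by library total alone, the median of all genes tested moved from -0.09 to -0.65 (log2) between N4 and naive and from -0.20 to -1.05 between N4 and T4, so each level below is given as TMM-scaled CPM (counts per 1000000), and for the 8 RNAs the difference on the library total is added where its direction turns. CD8 T cell markers were present in every library, with summed levels of 3202 to 4696 CPM over 7 genes, most of it Cd3d and Cd3g. Their median difference between N4 and naive was -0.89, with 6 of the 7 below 0 and 1, Cd2, called lower (adjusted p = 0.047, edgeR); Cd8b1 averaged 175 CPM in N4 and 512 in naive (adjusted p = 0.059). Markers of other cells differed between the groups. The 12 macrophage and monocyte markers summed to 17.0 to 20.9 CPM in N4 (3 of the 12 at 0 in both libraries), 261 to 274 in T4 and 2271 to 2677 in naive. The 8 neutrophil markers summed to 2455 CPM in naive replicate 1 and 25371 in naive replicate 2, against at most 47.8 in the stimulated libraries. The 7 red cell markers summed to 362 to 426 CPM after N4, compared with 6618 to 8205 after T4 and 3492 to 9260 in naive cells; all 7 fell between N4 and naive and 6 of 7 between N4 and T4. The 11 B cell markers summed to 3.8 to 4.4 CPM after N4 (5 of the 11 at 0 in both libraries), compared with 61.3 to 61.6 after T4 and 27.1 to 90.0 in naive cells; of the 10 tested, 6 fell between N4 and naive and 5 between N4 and T4. The 10 dendritic cell markers summed, mostly through H2-Aa, H2-Ab1 and Cd74, to 83.5 to 97.7 CPM after N4, compared with 524 to 540 after T4 and 1274 to 1969 in naive cells. This list did not move as one: between N4 and T4, 4 of the 10 were above 0 and 6 below (1 called higher, 2 lower). Between N4 and naive, 3 were above 0 and 7 below (5 called lower). Batf3 and Itgax had their highest means after N4, with Batf3 averaging 17.1 CPM there, 4.05 for T4 and 7.45 for naive. The 6 natural killer cell markers summed, nearly all of it through Nkg7, also a gene of cytotoxic T cells, to 15226 to 21383 CPM after N4, compared with 6178 to 7084 after T4 and 4596 to 10490 in naive cells, and the stromal and CD4 T cell lists to at most 39.5 CPM. Ncr1, a defining natural killer cell gene, was at 0.87 and 0.46 CPM after N4, compared with 7.97 and 7.50 after T4 and 25.9 and 25.4 in naive cells. The 10 cell cycle genes summed to 1371 to 1455 CPM in N4, 480 to 512 in T4 and 249 to 333 in naive. In bulk RNA, a change in the share of a cell type and a change in RNA per cell cannot be told apart. 

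Malat1 was lower after N4 than in either other group, and Neat1 was higher after T4 than in either other group. Malat1 (chr19:5795690-5802672, minus strand, GRCm38) stood at 987 and 823 CPM in naive cells, 977 and 1062 after T4, and 252 and 326 after N4. Both N4 libraries were below all 4 others, and T4 and naive overlapped. Among all genes tested, the libraries of N4 and naive did not overlap for 55.4%, those of T4 and naive for 48.8% and those of N4 and T4 for 65.2%. Malat1 fell by 1.65 (SE 0.27) on the log2 scale between N4 and naive, a 3.13-fold lower level (adjusted p = 0.020, edgeR quasi-likelihood test), and by 1.82 (SE 0.27) between N4 and T4 (adjusted p = 0.026). Between T4 and naive the difference was 0.17 (SE 0.26, adjusted p = 0.85). On the library total, the N4 libraries held 207 and 209 CPM and the naive libraries 1290 and 685, and T4 1329 and 1362, so the N4 libraries were lowest on both scales and the naive replicates were apart on this one. Malat1-201, the 6983-base RNA, took 100% of the gene's counts in every library to 3 digits. An entry on the opposite strand, Gm37376, overlaps Malat1, and no label states that strand was kept, so reads of the pair cannot be told apart. Between N4 and naive, Malat1 was the only one of the 8 to pass, where 12.1% of genes tested passed (7.18% lower). Malat1 averaged 1019 ± 59.9 CPM (SD, n = 2) in T4 and 905 ± 116 in naive. The red cell and B cell marker sums were likewise low in N4 and overlapped between T4 and naive, whereas the macrophage and dendritic cell sums were lowest in N4 and highest in naive; the part of other cells in the level of Malat1 was not tested. Leaving out either N4 library or either T4 library ended both calls of Malat1 (changes of -1.48 to -1.85 between N4 and naive, adjusted p up to 0.097; -1.65 to -2.02 between N4 and T4, up to 0.18), and so did the fit of N4 and naive alone for that comparison (-1.76, adjusted p = 0.061).

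Neat1 (chr19:5824708-5845478, minus strand), next to Malat1 on the same strand, did not follow it. Its level was 20.7 and 26.0 CPM after N4, compared with 72.5 and 91.7 after T4 and 19.5 and 23.3 in naive cells. The T4 libraries were above all others, and N4 and naive overlapped. Neat1 fell by 1.81 (SE 0.27) between N4 and T4, a 3.51-fold lower level (adjusted p = 0.025, edgeR). Malat1 and Neat1 were the 2 of the 8 that passed in this comparison, both lower in N4, where 7.96% of genes passed (4.47% lower). The difference between T4 and naive, 1.94 (SE 0.27), was of like size and did not pass (adjusted p = 0.066), where only 0.117% of genes passed; it passed with DESeq2 (adjusted p = 7.5e-08), without the filter on low counts (0.0016) and without naive replicate 2 (0.048). Between N4 and naive the difference was 0.13 (SE 0.26, adjusted p = 0.78), and on the library total it was -0.41. The call between N4 and T4 was lost on leaving out any one of the 4 libraries of those groups (changes of -1.66 to -2.03, adjusted p up to 0.17).

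**Figure D1:**
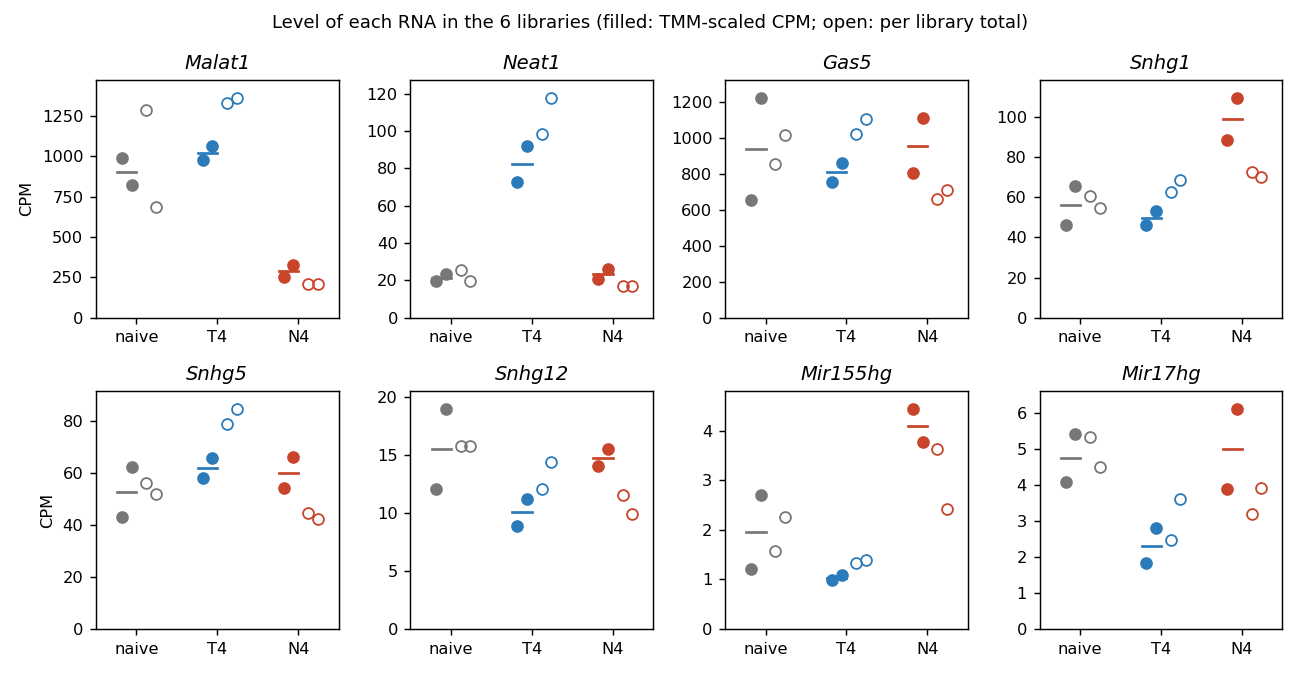
Level of each of the 8 RNAs in CPM (linear axes from 0) in the 2 naive, 2 T4 and 2 N4 libraries; filled points are TMM-scaled with a bar at the group mean, open points are on the library total. Malat1 is low in both N4 libraries (252 and 326 CPM) and Neat1 is high in both T4 libraries (72.5 and 91.7 CPM) on either scale.

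The ratio of 2 RNAs in one library does not depend on the scaling. Neat1 counts per 100 Malat1 counts were 1.98 and 2.83 in the naive libraries, against 7.42 and 8.64 with T4 and 8.23 and 7.99 with N4. Both stimulated groups lay above naive and overlapped each other. In N4 the higher ratio went with a low level of Malat1, and in T4 with a high level of Neat1. This ratio was singled out after its values were seen, and among all 28 pairs of the 8 RNAs the libraries did not overlap in 18 pairs between N4 and naive, 22 between T4 and naive and 26 between N4 and T4. 

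Neat1 has a short and a long form that start at the same place; the long form is the one that builds paraspeckles. The 20771-base Neat1-201, a model of 1 exon, took 84.0% and 67.5% of the gene's counts in naive, 97.6% and 100% in T4 and 89.4% and 100% in N4. The 3004-base Neat1-202, a model of 2 exons, took 15.7% and 32.4% in naive, 2.38% and 0% in T4 and 10.2% and 0% in N4. Its share was higher in both naive libraries than in the 4 others, but the usage test on transcript counts (edgeR diffSpliceDGE) did not pass for Neat1 (adjusted p = 1 in all 3 comparisons). A library listed at 0 beside a replicate at 10.2% shows how coarse this split is. The shares are of counts, not divided by length, and a longer RNA gives more counts per molecule. They are also shares of annotated models, and whether the spliced Neat1-202 stands for the short form was not tested. The shares therefore do not show which form had more molecules in a group. Malat1 and the long form of Neat1 are known to end without a poly(A) tail, and the labels name a poly(A) kit, so both levels depend on how such RNAs were primed.

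Frmd8, a protein-coding gene 4224 bases from Neat1, did not pass. It averaged 24.1 CPM in N4, 25.3 in T4 and 40.0 in naive (N4 against T4 -0.07, SE 0.57, adjusted p = 0.96).

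Of the proteins reported in paraspeckles, 6 of 28 rose between N4 and naive and none fell (edgeR), with a median of 0.54 against -0.09 for all genes tested; 4.87% of genes passed as higher. Between N4 and T4, 5 of 28 rose and none fell (median 0.58 against -0.20, 3.48% of genes higher). Between T4 and naive, where 0.117% of all genes passed, none of the 28 did (median -0.12, with 12 above 0). Rbm3, a cold-induced RNA-binding protein, had the largest change of those called: 531 and 515 CPM in naive cells, 448 and 449 after T4, and 1690 and 2780 after N4 (N4 against naive 2.09, SE 0.32, adjusted p = 0.017). Nudt21, a subunit of the cleavage factor that chooses poly(A) sites and whose binding in Neat1 is known to favour the short form, was at 825 and 1090 CPM after N4, compared with 229 and 252 after T4 and 227 and 346 in naive cells (1.74, SE 0.32, adjusted p = 0.025). Tardbp, Dazap1, Sfpq and Hnrnpa1 were the others that rose against naive, and Fam98a joined Rbm3, Nudt21, Dazap1 and Tardbp against T4. Sfpq, a core protein of paraspeckles, was at 24.2 and 20.4 CPM in naive cells, 29.5 and 32.6 after T4 and 48.9 in each library after N4. Nono, its partner in the core of paraspeckles, was at 37.3 and 25.6 CPM in naive cells, 37.8 and 34.1 after T4, and 51.6 and 45.0 after N4 and did not pass (N4 against naive 0.62, SE 0.27, adjusted p = 0.18), and neither did the related Pspc1 (0.78, SE 0.36, adjusted p = 0.20). These counts depend on the scaling: on library totals 2 of 28 rose in each comparison with N4, Rbm3 and Nudt21, and the medians became -0.07 and -0.28. Without any one N4 or T4 library they were 0 or 1, and 0 in the fit of N4 and naive alone.

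Of 15 entries for other nuclear RNAs tested, 1 rose and 1 fell between N4 and naive, near the 4.87% and 7.18% of all genes, and none passed in the other comparisons (edgeR; medians 0.15, 0.40 and 0.06 for N4 against naive, T4 against naive and N4 against T4). Rpph1, the RNA of ribonuclease P, was at 5.43 and 14.0 CPM in the naive libraries, against 46.9 and 63.5 with T4 and 178 and 174 with N4 (N4 against naive 4.18, SE 0.52, adjusted p = 0.011). Hotairm1, an RNA known from myeloid cells, was below 1 CPM in all 4 stimulated libraries and at 1.01 and 3.28 in naive, the libraries with the highest myeloid marker sums, whose part was not tested (-3.97, SE 0.96, adjusted p = 0.049).

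None of the 4 snoRNA hosts passed the test in any comparison, and they did not share one pattern. Gas5 (chr1:161034422-161038539, plus strand), known as a transcript of growth-arrested cells, was at 655 and 1223 CPM in naive cells, 754 and 863 after T4, and 803 and 1111 after N4. The 2 naive libraries spanned all the others. Its differences were 0.03 (SE 0.37) between N4 and naive, -0.22 (SE 0.37) between T4 and naive and 0.24 (SE 0.37) between N4 and T4, with adjusted p of 0.98, 0.87 and 0.72 (edgeR). All 3 turned sign under library totals, to -0.45, 0.19 and -0.64, and the last of these then passed (adjusted p = 0.048).

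Snhg1 (chr19:8723475-8726443, plus strand) was higher in the N4 libraries than in any other. It stood at 88.6 and 109.6 CPM after N4, compared with 46.1 and 53.4 after T4 and 46.3 and 65.9 in naive cells. T4 and naive overlapped. The differences were 0.82 (SE 0.28, adjusted p = 0.11) from naive and 0.99 (SE 0.28, adjusted p = 0.077) from T4, neither past the threshold; that from T4 passed with DESeq2 (0.013), in the fit of those 2 groups alone (0.020) and without either naive library (0.024 and 0.025), and that from naive passed without naive replicate 2 (0.039). On library totals they shrank to 0.31 and 0.12. Between T4 and naive the difference was -0.17 (adjusted p = 0.85), and it turned to 0.185 on library totals. Snhg5 (chr9:88521050-88522929, minus strand) was at 43.2 and 62.3 CPM in the naive libraries, against 58.0 and 66.0 with T4 and 54.3 and 66.2 with N4, and all 3 groups overlapped. Its differences were 0.19 between N4 and naive, 0.23 between T4 and naive and -0.04 between N4 and T4 (SE 0.27 each; adjusted p = 0.68, 0.79 and 0.95); on library totals the first and the last became -0.32 and -0.91.

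These hosts were also set against each other within each library, again after the values were seen. Snhg1 counts per 100 Snhg5 counts were 107 and 106 in naive cells, 79.5 and 81.0 after T4, and 163 and 166 after N4. The replicates of each group lay closer together than any 2 groups did, and N4 and T4 lay on opposite sides of naive. Snhg1 counts per 100 Gas5 counts gave 11.0 and 9.87 after N4, compared with 6.12 and 6.19 after T4 and 7.07 and 5.39 in naive cells, with N4 highest and the other 2 groups overlapping. Per 100 Snhg12 counts, Snhg1 stood at 383 and 348 in the naive libraries, against 520 and 476 with T4 and 631 and 707 with N4, so this ratio was also highest in N4, but T4 now lay above naive.

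**Figure D2:**
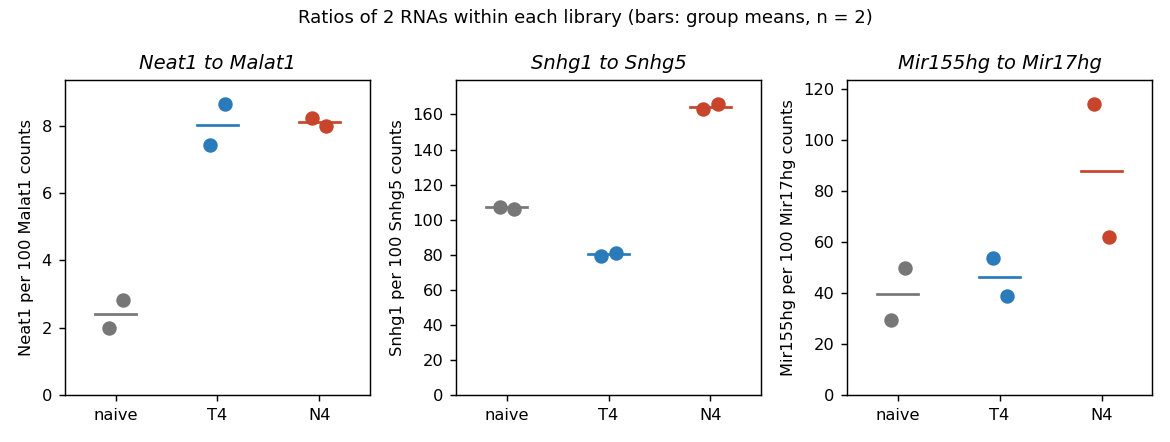
Ratios of estimated counts of 2 RNAs inside each library (linear axes from 0), with 2 points and a mean bar for each of naive, T4 and N4. The ratio of Neat1 to Malat1 is near 8 in T4 and N4 and 1.98 to 2.83 in naive, while that of Snhg1 to Snhg5 is highest in N4 (163 and 166) and lowest in T4 (79.5 and 81.0).

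Snhg12 (chr4:132308623-132311024, plus strand) was at 12.1 and 18.9 CPM in naive cells, 8.87 and 11.2 after T4, and 14.0 and 15.5 after N4. Both T4 libraries were below those of the other groups, but neither difference passed (edgeR: T4 against naive -0.63, SE 0.31, adjusted p = 0.43, and N4 against T4 0.56, SE 0.31, adjusted p = 0.28). The second difference turned to -0.30 on library totals. Of the 7 Snhg12 transcripts with at least 5% of the counts, 3 had shares in N4 that overlapped neither other group, and the 2 given here were singled out after their values were seen. How often shares separate in this way among all transcripts was not computed, so the count only describes. Snhg12-206, a 606-base RNA of 5 exons, took 38.3% and 32.3% of the counts in naive cells, 38.3% and 41.4% after T4, and 14.2% and 15.9% after N4. Snhg12-202, of 422 bases and also 5 exons, took 29.2% and 27.7% after N4, compared with 10.2% and 8.07% after T4 and 1.71% and 18.3% in naive cells. The naive replicates were far apart in the second share, and Snhg12 did not pass the usage test in any comparison (adjusted p = 1).

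**Figure D3:**
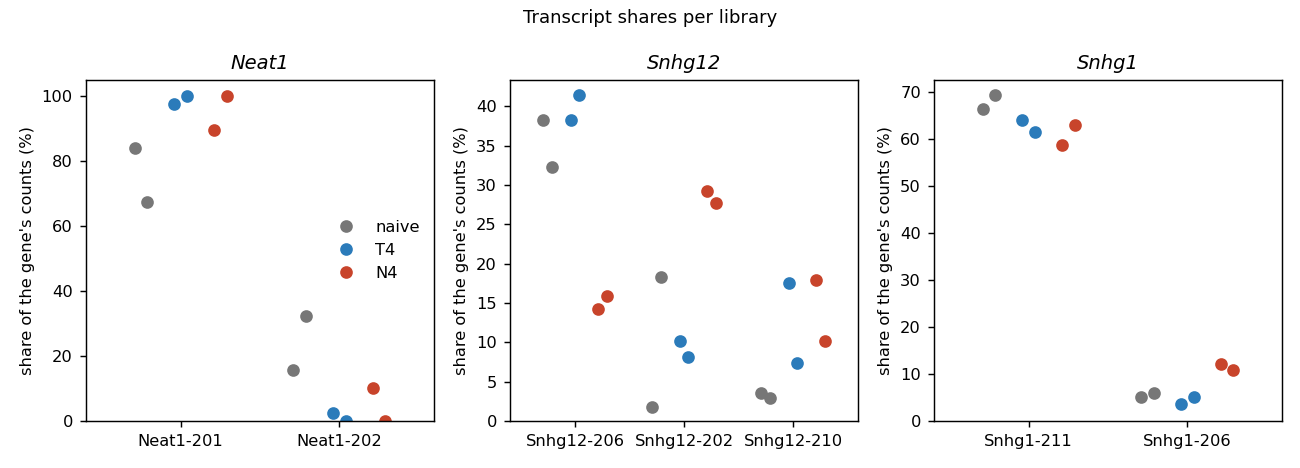
Share of each gene's estimated counts (percent, linear axes from 0) taken by named transcripts of Neat1, Snhg12 and Snhg1, with 1 point per library coloured by group. In N4, Snhg12-206 stands at 14.2% and 15.9% and Snhg12-202 at 29.2% and 27.7%; no usage test passed for these genes.

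In Snhg1 the fully spliced 605-base Snhg1-211 of 10 exons led in every library, with 58.8% to 69.4% of counts. Snhg1-206, a form annotated as keeping an intron, took 5.04% and 5.91% in the naive libraries, against 3.69% and 5.12% with T4 and 12.1% and 10.8% with N4, and N4 stood above the rest. In Gas5 the 502-base Gas5-224 of 12 exons took 58.1% to 64.5%, with both naive libraries (63.9% and 64.5%) above the others. All forms annotated as keeping an intron summed to 25.2% to 29.6% of Gas5 counts and 24.8% to 33.2% of Snhg1 counts. In Gas5 both T4 libraries (29.6% and 28.4%) lay above both naive libraries (27.9% and 25.2%) and N4 overlapped both groups, and in Snhg1 all 3 groups overlapped. Over protein-coding genes such forms took 3.18% to 4.36%. In the annotation, 20 of the 25 Gas5 transcripts and 14 of the 18 Snhg1 transcripts are of this type. These sums therefore depend on how each gene is annotated. Only 14.5% to 33.5% of Snhg5 counts fell on transcripts whose identifiers matched the annotation used here, so its shares are not described. None of the 5 genes with more than 1 tested transcript passed the usage test in any comparison (smallest adjusted p = 0.52, Snhg5, N4 against naive), where 0.808%, 0.269% and 1.05% of 10395 genes passed between N4 and naive, T4 and naive, and N4 and T4.

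**Figure D4:**
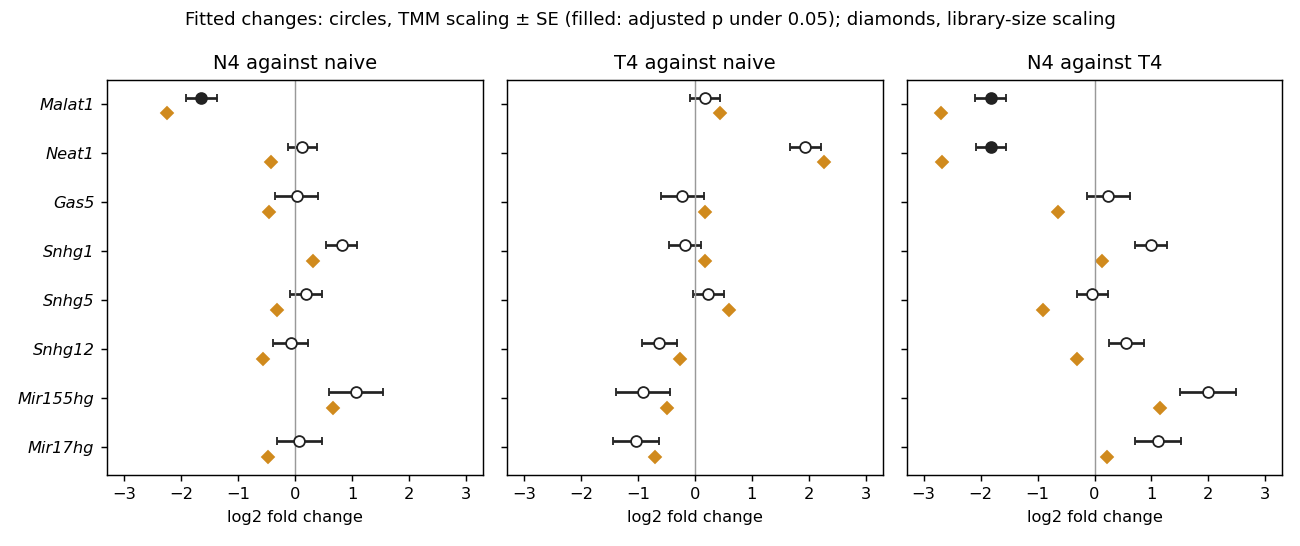
Log2 fold changes of the 8 RNAs in the 3 comparisons: circles are TMM-scaled estimates with SE bars (filled where the adjusted p is under 0.05), diamonds are estimates on the library total. Malat1 passes in both comparisons with N4 and Neat1 between N4 and T4; diamonds of Gas5 lie across 0 from its circles in all 3 comparisons.

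Some genes next to the hosts moved while the hosts did not pass. Slc3a2, the heavy chain of amino acid transporters, lies 106 bases from Snhg1 on the opposite strand; it averaged 26.2 CPM in N4, 50.4 in T4 and 42.3 in naive (N4 against T4 -0.94, SE 0.41, adjusted p = 0.19), so its values ran opposite to those of Snhg1. Wdr74, a ribosome biogenesis factor on the other side of Snhg1, fell by 1.17 (SE 0.27) between N4 and naive (adjusted p = 0.043) and by 1.36 (SE 0.27) between N4 and T4 (adjusted p = 0.040, edgeR). Syncrip, an RNA-binding protein gene 38476 bases from Snhg5, rose by 1.40 (SE 0.23) between N4 and naive (adjusted p = 0.019) and by 1.08 (SE 0.23) between N4 and T4 (adjusted p = 0.043). Trnau1ap, 739 bases from Snhg12, did not pass (-0.45, SE 0.26, adjusted p = 0.29 between N4 and naive).

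Among 14 other snoRNA hosts tested, 1 rose and 3 fell between N4 and naive, 1 rose and 2 fell between N4 and T4, and none passed between T4 and naive (edgeR; medians 0.12 for N4 against naive, 0.51 for N4 against T4 and -0.26 for T4 against naive). Of all genes, 4.87% rose and 7.18% fell between N4 and naive, and 3.48% rose and 4.47% fell between N4 and T4. On library totals none rose, and the medians for the comparisons with N4 became -0.36 and -0.37. Snhg6 was at 40.9 and 58.7 CPM in naive cells, 41.1 and 46.5 after T4, and 119 and 139 after N4, and rose by 1.37 (SE 0.27, adjusted p = 0.031) against naive and by 1.56 (SE 0.27, adjusted p = 0.032) against T4. Like Snhg1, it was highest in both N4 libraries. Snhg17 was at 6.20 and 3.73 CPM after N4, compared with 19 and 18.9 after T4 and 16.3 and 13.3 in naive cells, and fell by 1.58 (SE 0.32, adjusted p = 0.033) against naive. Snhg20 fell by 1.44 (SE 0.35, adjusted p = 0.049) between N4 and naive, with 119 and 212 CPM in naive and 52.6 to 69.6 in the 4 stimulated libraries. Snhg18 had no count in either N4 library and 0.312 to 0.593 CPM elsewhere. The hosts of this class thus differed among themselves in direction. Without any one N4 or T4 library, at most 1 of these calls was left in a comparison.

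Of 18 snoRNP proteins and assembly factors, which bind snoRNAs and build their particles, 2 rose between N4 and naive and 1 between N4 and T4, and none fell (edgeR; medians 0.34 and 0.04; T4 against naive 0.48, none called), where 4.87% and 3.48% of all genes rose. Nop58, a core protein of C/D snoRNPs, was at 23.4 and 19.6 CPM in the naive libraries, against 41.7 and 38.0 with T4 and 54.0 and 40.4 with N4 (N4 against naive 1.14, SE 0.26, adjusted p = 0.043). Znhit3, an assembly factor, was at 67.4 and 111 CPM in naive cells, 74.2 and 77.5 after T4, and 212 and 272 after N4, and rose by 1.44 (SE 0.32, adjusted p = 0.039) against naive and by 1.68 (SE 0.32, adjusted p = 0.037) against T4. Fbl, the methyltransferase of C/D snoRNPs, was at 155 to 216 CPM in all 6 libraries. Spliced Gas5 RNA is known to be destroyed by nonsense-mediated decay when it is translated. Of 15 factors of that pathway, 1 rose in each comparison with N4, near those shares, and none passed between T4 and naive (medians 0.16, 0.01 and 0.12). This was Magoh, a core protein of the exon junction complex, at 885 and 1150 CPM after N4, compared with 230 and 259 after T4 and 189 and 382 in naive cells (N4 against naive 1.83, SE 0.40, adjusted p = 0.038).

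**Figure D5:**
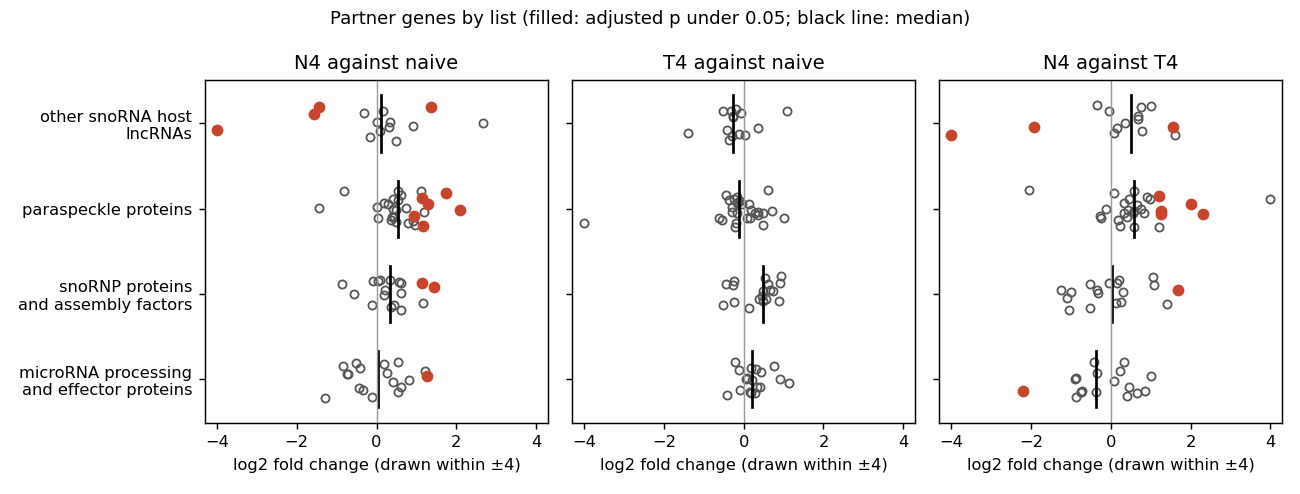
Log2 fold change of each tested gene of 4 lists in the 3 comparisons (values beyond 4 are drawn at 4); filled points have an adjusted p under 0.05 and black lines are medians. Paraspeckle protein genes have medians of 0.54 and 0.58 in the comparisons with N4 and -0.12 between T4 and naive under TMM scaling; on library totals the first 2 become -0.07 and -0.28.

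Mir155hg (chr16:84703167-84715245, plus strand) was highest in N4. It stood at 1.2 and 2.7 CPM in the naive libraries, against 0.98 and 1.09 with T4 and 4.43 and 3.78 with N4, on 397 to 979 estimated counts per library. Both N4 libraries were above the 4 others and both T4 libraries below them. The difference between N4 and T4 was 1.99 (SE 0.49), a 3.97-fold higher level, and did not pass (adjusted p = 0.060, edgeR); it passed with DESeq2 (0.0011), without the filter (0.035), in the fit of those 2 groups alone (0.015) and without either naive library (0.017 and 0.016). Against naive the difference was 1.08 (SE 0.48, adjusted p = 0.19) for N4 (0.046 without naive replicate 2) and -0.91 (SE 0.48, adjusted p = 0.46) for T4. On library totals N4 still stood above T4, by 1.15. Mir155hg-202 took all counts of the gene in every library.

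Mir17hg (chr14:115042879-115046727, plus strand) was at 4.09 and 5.42 CPM in naive cells, 1.83 and 2.81 after T4, and 3.89 and 6.11 after N4. T4 was below all 4 other libraries, and N4 and naive overlapped. The differences were -1.04 (SE 0.40, adjusted p = 0.32) between T4 and naive, 1.11 (SE 0.40, adjusted p = 0.13) between N4 and T4, and 0.07 (SE 0.40, adjusted p = 0.93) between N4 and naive, and the second shrank to 0.22 on library totals and passed with DESeq2 (0.049), while the third turned to -0.47 on library totals. The 2 microRNA hosts thus were both lowest in T4 on the TMM scale, with N4 above naive in Mir155hg only as values. Mir155hg counts per 100 Mir17hg counts were 114 and 61.9 after N4, compared with 53.8 and 38.7 after T4 and 29.4 and 49.9 in naive cells, and the N4 replicates were far apart. Mrpl39, 2331 bases from Mir155hg, averaged 30.7 CPM in N4, 40.2 in T4 and 33.2 in naive and did not pass (N4 against T4 -0.39, SE 0.21, adjusted p = 0.28).

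Of 6 other microRNA hosts tested, only Mir142hg passed (edgeR), lower in N4 than in naive, where 7.18% of all genes passed as lower. The medians were -1.07 for N4 against naive, -0.12 for T4 against naive and -0.76 for N4 against T4. Mir142hg, the host of the blood-cell microRNA miR-142, was at 31.5 and 61.9 CPM in the naive libraries, against 18 and 22.6 with T4 and 12.6 and 13.8 with N4 (-1.82, SE 0.37, adjusted p = 0.033). Of 18 proteins that process or use microRNAs, 1 rose between N4 and naive and 1 fell between N4 and T4, near the 4.87% and 4.47% of all genes, and none passed between T4 and naive (medians 0.04, -0.36 and 0.20). Ran, the GTPase that drives nuclear export of hairpins by exportin-5 among many other cargoes, was at 637 and 853 CPM in naive cells, 973 and 1010 after T4, and 1720 and 1840 after N4 (N4 against naive 1.26, SE 0.27, adjusted p = 0.037). Prkra, a partner of Dicer, was at 0.87 and 1.65 CPM after N4, compared with 6.57 and 5.02 after T4 and 3.26 and 2.87 in naive cells, and fell by 2.20 (SE 0.43, adjusted p = 0.039) between N4 and T4. Drosha and Dicer1, the 2 nucleases of the pathway, were at 2.76 to 7.51 and 3.98 to 7.21 CPM.

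Among 16 genes reported as targets of miR-155, 2 rose and 5 fell between N4 and naive, 2 fell between N4 and T4, and none passed between T4 and naive (edgeR; medians -0.65, -0.26 and -0.33). Of all genes, 4.87% rose and 7.18% fell between N4 and naive, and 4.47% fell between N4 and T4. Socs1, a brake on cytokine signalling, was at 142 and 282 CPM in the naive libraries, against 52.0 and 60.7 with T4 and 61.2 and 59.0 with N4, and fell by 1.82 (SE 0.37, adjusted p = 0.032) between N4 and naive. The N4 and T4 libraries overlapped in Socs1. As values, Mir155hg was highest in N4 and lowest in T4. Mature miR-155 was not measured, and a link between Mir155hg and Socs1 was not tested. Peli1 and Bach1 also fell, whereas Phf19 and Sirt1 rose. Spi1 and Csf1r, the other genes that fell and the 2 that fell against T4, are genes of macrophages. Csf1r was at 11.3 and 15.4 CPM in naive cells, 1.53 and 3.75 after T4, and 0.04 and 0.10 after N4. The macrophage marker sum, from a list that holds Csf1r, had the same order, and the part of other cells was not tested. Among 13 genes reported as targets of the miR-17-92 cluster, E2f1, a cell cycle transcription factor, rose between N4 and naive and no other gene passed in any comparison (medians -0.13, -0.33 and 0.20 for N4 against naive, T4 against naive and N4 against T4). E2f1 was at 14.6 and 11.2 CPM after N4, compared with 13.4 and 10.5 after T4 and 4.62 and 4.63 in naive cells (1.48, SE 0.28, adjusted p = 0.027), and on library totals the difference of 0.96 did not pass (adjusted p = 0.20). Bcl2l11, a well-known target of the cluster in lymphocytes, did not pass (adjusted p = 0.16 between N4 and naive). Without any one N4 or T4 library, no gene passed among the snoRNP proteins, decay factors, microRNA proteins or miR-17-92 targets in the comparisons with N4, while 2 or 3 of the miR-155 targets passed as lower in N4 than in naive and at most 1 as lower in N4 than in T4.

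Levels of different genes can be compared only per length. CPM divided by transcript length in kilobases put Gas5 first in every library (1150 to 2190). In naive and T4, Malat1 came next (118 to 152), followed by Snhg1 (68.9 to 102). In N4 this order was exchanged, with Snhg1 at 137 and 172 and Malat1 at 36.1 and 46.7. Snhg12 followed in all groups (12.3 to 28.5). The lowest places were taken by Neat1, Mir155hg and Mir17hg. In T4, Neat1 (3.98 and 4.44) was above both microRNA hosts (0.517 to 0.798), which overlapped. In N4, Mir155hg (3.26 and 2.78) was above Neat1 (1.67 and 1.25) and Mir17hg (1.1 and 1.73), which overlapped, and in naive Neat1 and Mir155hg overlapped. Snhg5 was left out of this order because most of its counts had no matched transcript length. Dividing by length does not correct for the poly(A) kit. The places of Malat1 and Neat1 therefore also depend on how RNAs without a poly(A) tail were primed.

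Genes with the most similar profile over the 6 libraries were sought among 5133 or 5134 genes of sufficient level, by Pearson's r of log2 CPM; with 6 libraries in 3 groups that share their depth and composition, these values only describe. Malat1 was closest to Hsd11b1 (r = 0.998), Dph1 (0.997) and Ublcp1 (0.996). Hsd11b1, an enzyme that activates glucocorticoids, was at 33.4 and 38.7 CPM in N4 and 78.4 to 87.7 in the other 4 libraries. Neat1 was closest to Nlrc5, the activator of MHC class I genes (r = 0.987), Elk4 (0.983) and Rnu3a (0.980), which was at 57.9 and 74.0 CPM in T4 and 4.26 to 9.52 elsewhere. Gas5 was closest to Svbp (r = 0.998), Snhg1 to Ndufs4 (0.999), Snhg5 to Serf1 (0.984), Snhg12 to Rab10os (0.993), Mir155hg to Rab5if (0.987) and Mir17hg to Atp2c1 (0.996). Gar1, a core protein of H/ACA snoRNPs, was among the 3 closest to Mir155hg (r = 0.983), at 176 and 194 CPM in N4 and 84.9 to 159 elsewhere.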

How the data were processed

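The deposited gene and transcript tables of 6 libraries hold whole-number estimated counts; the submitters' processing notes name STAR 2.7.1a, SAMtools 1.9, StringTie 2.1.0, R 4.0.5, DESeq2 1.30.1 and the build mm39. Names, transcript types, lengths and GRCm38 coordinates came from GENCODE M21, another build, matched by identifier (94.0% of genes, 97.1% of transcripts). Per the labels, RNA was made into libraries with a SMARTer poly(A) kit. Genes were tested in R 4.3.3 with the quasi-likelihood test of edgeR 4.0.16 (TMM scaling, filter by expression, all 6 libraries in 1 fit with 3 residual degrees of freedom, Benjamini-Hochberg over 23003 genes, threshold 0.05), and transcript shares with diffSpliceDGE over 10395 genes. DESeq2 1.42.0, other scalings, no filter, 2-group fits, a replicate block and leaving out each library were alternatives. The common biological coefficient of variation was 0.67. Tests were checked on simulated counts. Named were all 8 RNAs, up to 4 genes per list with the smallest p or called in 2 comparisons, the nearest protein-coding neighbours, the 3 most correlated genes (mean log2 CPM of at least 3) and transcripts with at least 5% of counts; Nono, Fbl, Drosha, Dicer1 and Bcl2l11 were added by role. Some genes that this rule names are not reported here. The members and lists were chosen with earlier results of these data known.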

Additional observations from a re-analysis of the deposited data

How the results depend on the processing

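In all 12 alternatives Malat1 stayed lower in N4 than in naive and than in T4, Neat1 lower in N4 than in T4 and higher in T4 than in naive, Mir155hg higher in N4 than in both other groups, and Snhg1 higher in N4 than in both, whether or not they passed. The other directions below changed sign and none of them had passed at first. With DESeq2's size factors in edgeR, Gas5 between N4 and naive was -0.015 and 0 genes passed between T4 and naive (3360 at an unadjusted p under 0.05; 27 at first, and 2231 by DESeq2). With library totals, N4 against naive gave -0.413 for Neat1, -0.451 for Gas5, -0.316 for Snhg5 and -0.471 for Mir17hg; T4 against naive gave 0.186 for Gas5, 0.185 for Snhg1 and 53 genes; and N4 against T4 gave -0.637 for Gas5 and -0.302 for Snhg12. Of the genes passing between N4 and naive, 1120 were higher and 1652 lower at first, and 695 and 1777 with library totals; between N4 and T4 these were 801 and 1029, and 320 and 1736. Without the filter on low counts, N4 against naive gave -0.01 for Neat1, -0.107 for Gas5, -0.067 for Mir17hg and 4257 genes, T4 against naive 956 genes and 1 of the 8 RNAs (Neat1), and N4 against T4 3834 genes. With the DESeq2 Wald test, Gas5 between N4 and naive was -0.028, and 6657, 2231 and 6232 genes passed in the 3 comparisons, with 1 of the 8 RNAs between T4 and naive and 5 between N4 and T4. In fits of only the 2 groups compared, N4 against naive gave 1044 genes, 0 of the 8 RNAs, -0.097 for Gas5 and -0.048 for Mir17hg; T4 against naive gave 0 genes (3531 at an unadjusted p under 0.05), and N4 against T4 gave 5281 genes and 4 of the 8 RNAs.

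The replicate numbers are shared between groups in the labels, which do not say what they stand for, and same-numbered libraries did not deviate together (r of 0.08, 0.04 and 0.02 for N4 and naive, T4 and naive, and N4 and T4). With the replicate block, 130 genes and 1 of the 8 RNAs (Neat1, adjusted p = 0.039) passed between T4 and naive, 3367 genes and 4 of the 8 RNAs between N4 and T4 (Snhg1, 0.035, and Mir155hg, 0.048, beside Malat1 and Neat1), and 3620 genes between N4 and naive; transcript usage then passed in 36, 12 and 40 genes.

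Leaving out each library in turn assumes that a lone library varies like the other groups. It gave 639 to 4487 genes between N4 and naive, 0 to 357 between T4 and naive and 0 to 4547 between N4 and T4, with 0 to 3, 0 to 1 and 0 to 4 of the 8 RNAs; 0 genes passed between N4 and T4 without N4 replicate 2 or T4 replicate 2. Transcript usage passed in 25 to 118, 3 to 40 and 8 to 153 genes. Between N4 and naive, Neat1 ran from -0.133 to 0.281, Gas5 from -0.497 to 0.54, Snhg5 from -0.188 to 0.474, Snhg12 from -0.497 to 0.281 and Mir17hg from -0.293 to 0.36. Between T4 and naive, Gas5 ran from -0.688 to 0.3, Snhg1 from -0.495 to 0.1 and Snhg5 from -0.097 to 0.518. Between N4 and T4, Gas5 ran from -0.013 to 0.456 and Snhg5 from -0.195 to 0.094. The causes of these shifts were not tested.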
